A study of Mus musculus with 6 samples.

Results

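The RAS-ERK genes described here were 45 genes chosen by name, all of which had a row among the 20624 genes of the deposited table. They comprised 12 genes of the kinase cascade and its direct regulators, 14 feedback inhibitors, and 19 transcription factors and immediate early genes. RNA was sequenced from the mouse distal convoluted tubule line mDCT15 in 6 samples: 3 wild type and 3 Pkd1-/-, the latter edited with CRISPR/Cas9. Both genotypes grew in serum-supplemented DMEM/F12 medium and received no further treatment that the labels name. The sample titles call the edited cells Pkd1-/-, whereas the genotype field of the labels calls them a knockdown; whether each line is 1 clone is not given in the sources used here. The value used for each gene was the authors' mean normalized count, a single mean over the 6 samples in which both genotypes weigh equally. It carries no error and no depth per sample, so no value below can be assigned to a genotype, and a difference between genes cannot be set against the spread between replicates. The genotype difference was not analysed here.

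In this pathway, growth factor receptors recruit the adaptor GRB2 and the exchange factor SOS, which load RAS with GTP. RAS-GTP then activates the kinases RAF, MEK and ERK in turn, and ERK phosphorylates transcription factors that switch on immediate early genes such as Fos and Egr1 within minutes. Among the induced genes are inhibitors of the same pathway: dual-specificity phosphatases (DUSP) that remove phosphate from MAP kinases, and Sprouty and SPRED proteins that act upstream of or at RAF. Polycystin-1, the product of Pkd1, is the protein most often mutated in autosomal dominant polycystic kidney disease, in which ERK signalling in tubule cells has long been studied. Immediate early messages are short-lived, and serum in the medium is a classical inducer of them.

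Stretches of 4 member promoters are printed first, because they hold the CArG boxes and cyclic AMP response elements found among the members. They come from the RefSeq promoter set of GRCm38.p6, which covers 250 bases before to 50 after each start site and held 35 of the 45 members in 42 windows. Positions are relative to the RefSeq start site, and coordinates are those of the single exact match in GRCm39. The capitals mark a CArG box (the binding site of serum response factor) in Dusp5 and Egr2, and the cyclic AMP response element TGACGTCA in Braf and Dusp1. The Dusp5 stretch, chr19:53517326-53517514 on the plus strand, and the Egr2 stretch, chr10:67373146-67373334 on the plus strand, lie upstream of the RefSeq start. The Dusp1 stretch, chr17:26727508-26727696 on the minus strand, does so as well. The stretches of Egr2 and Dusp1 nevertheless lie within the GENCODE span of the gene, which begins farther upstream, though outside its exons. The 30 bases of Braf, chr6:39702469-39702498 on the minus strand, lie before the RefSeq start but inside the first exon of GENCODE, which begins farther upstream.
Dusp5: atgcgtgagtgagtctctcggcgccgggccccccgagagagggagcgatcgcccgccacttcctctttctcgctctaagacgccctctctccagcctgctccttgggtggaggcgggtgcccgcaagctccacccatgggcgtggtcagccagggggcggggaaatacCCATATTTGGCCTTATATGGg
Egr2: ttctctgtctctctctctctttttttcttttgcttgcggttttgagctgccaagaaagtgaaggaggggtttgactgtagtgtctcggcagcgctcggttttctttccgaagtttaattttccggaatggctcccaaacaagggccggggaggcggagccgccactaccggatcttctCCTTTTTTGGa
Braf: gaTGACGTCAcgcacccaggTGACGTCAcg
Dusp1: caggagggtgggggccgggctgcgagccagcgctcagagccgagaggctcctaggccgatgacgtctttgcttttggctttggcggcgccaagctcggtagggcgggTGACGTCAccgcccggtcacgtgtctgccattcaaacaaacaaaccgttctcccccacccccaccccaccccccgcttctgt

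Dusp5, which encodes a nuclear phosphatase of ERK, held 2 CArG boxes back to back, from -82 to -73 and from -72 to -63. Egr2, a zinc finger transcription factor, held 1 in each of 4 of its 5 windows. Counted by gene, 2 of the 35 matched members (5.71%) held a CArG box, against 1.81% of the 27025 genes of the set. Counted by window the background was 1.63% of 32851, and 4 of the 5 member windows with a box belonged to Egr2. Braf, which encodes a RAF kinase, held 2 cyclic AMP response elements, from -99 to -92 and from -81 to -74, and Dusp1, an early-induced MAP kinase phosphatase, held 1 from -143 to -136. These were 5.71% of the matched members against 2.03% of all genes, and the element occurred in 1.79% of all windows. The AP-1 site TGANTCA, bound by FOS and JUN dimers, was found in 0 of the 42 member windows, against 7.81% of all windows and 8.97% of all genes. The ETS core CCGGAA was found in 8 members, namely Araf, Egr2, Hras, Map2k1, Nf1, Rasa1, Sos1 and Spry2, which is 22.9% of the matched members against 16.7% of all genes. It occurred in 14.9% of all windows. Of these 8, 6 belonged to the cascade and its regulators, a layer of 12 genes in which only Mapk3 had no entry. A difference between the layers was not tested. The EGR site GCGNGGGCG was found in Dusp2, Dusp16, Fosb, Fosl2 and Sos2, which is 14.3% of the matched members against 6.27% of all genes, and in 5.55% of all windows. All motifs were searched on both strands, and overlapping matches were counted. A match describes the letters of the window and not binding, and these counts are small. Sites outside the windows were not searched, so a member without a match may hold one elsewhere. Mapk3, Dusp4, Spry4, Etv4, Fosl1, Egr1, Egr3, Myc, Ier2 and Phlda1 had no entry in the table used.

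The members lay high in the distribution of levels. To compare genes of unequal length, each mean normalized count was divided by the summed length of the gene's annotated exons in kb, which was possible for 20122 (97.6%) of the genes. On this scale 41 of the 45 members lay above the median of 28.6 per kb, where 50% of all genes lie by definition. Of the members, 27 lay above the 75th percentile and 15 above the 90th, which stood at 311 per kb. The median percentile of the members was 80.6. The background matters to this reading, because the table holds many non-coding and barely detected genes: among protein-coding genes alone 34 members lay above the median, and among genes with a mean count of at least 10, 32 did. The 4 members below the median of all genes were Dusp2, Spry4, Etv1 and Etv5, all of them feedback inhibitors or ETS factors. In mean count without regard to length, 23 members reached 1000, a level that 20.9% of all genes reached, and the members together made up 0.449% of the summed counts.

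**Figure D1:**
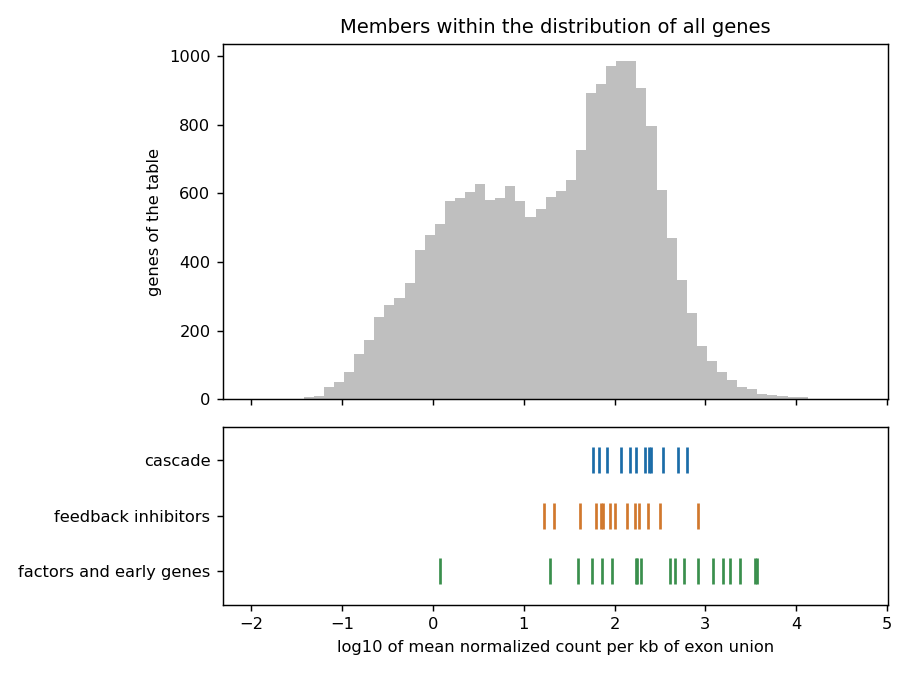
Levels of the members among all genes of the table. The upper panel is a histogram of the genes over the log10 of the authors' mean normalized count per kb of exon, and each line in the lower panel is 1 member; the 19 factors and early genes spread from 1.21 to 3687 per kb, whereas the 12 cascade genes lie between 57.9 and 628.

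The 3 functional layers differed in how widely their levels spread. All 12 cascade genes lay above the median of all genes, between 57.9 per kb of exon for Rasa1 and 628 for Mapk3, with a median percentile of 82.6. The 14 feedback inhibitors ran from 16.7 per kb for Spry4 to 832 for Dusp1, with a median percentile of 69.1. The 19 transcription factors and early genes covered the widest range, from 1.21 per kb for Etv1 to 3687 for Ier2, with a median percentile of 92.9. Of the 15 members above the 90th percentile, 10 belonged to this last layer, 3 to the cascade and 2 to the inhibitors. All 10 were early genes rather than ETS factors. These are descriptions of a mean over samples and no test was run on them.

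Nras was the more abundant of the 2 RAS genes in the list. RAS proteins are the small GTPases that switch the pathway on. Nras (ENSMUSG00000027852, chromosome 3, 102965601 to 102976171) averaged 3670 normalized counts and a level of 503 per kb of exon, at the 94.8th percentile. Hras (ENSMUSG00000025499, chromosome 7, 140768592 to 140773962) averaged 747 normalized counts and a level of 148 per kb. The size of this gap depended on the length used: Nras was 3.41 times as high per kb of exon, 2.03 times per kb of the Ensembl canonical transcript and 5.85 times per kb of coding sequence. The order was the same under all 4 lengths tried, which also included the longest transcript.

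Upstream of RAS, the adaptor Grb2 stood above both exchange factors. It averaged 1842 normalized counts and 340 per kb of exon, at the 91.1st percentile, whereas Sos1 reached 172 per kb (mean count 2126) and Sos2 82.5 per kb (mean count 796). In raw mean count Sos1 was above Grb2, and the order turned once length was taken into account, the exons of Sos1 summing to 12.4 kb and those of Grb2 to 5.41 kb. Sos1 was above Sos2 under every length, by 1.97 to 2.78 times. Nf1 and Rasa1 encode GTPase-activating proteins, which return RAS to its inactive form. Nf1 averaged 4088 normalized counts, the highest of the cascade, and 218 per kb of exon, which was 3.76 times the 57.9 per kb of Rasa1 (mean count 799). The exons of Rasa1 overlap the opposite-strand gene Ccnh, a cyclin with a mean count of 427, over 14.4% of their length.

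The 5 listed kinases below RAS all lay above the median of all genes. Mapk3, which encodes ERK1 (ENSMUSG00000063065, chromosome 7, 126358723 to 126364991), averaged 1677 normalized counts and 628 per kb of exon, at the 96.2nd percentile, the highest level of the 12 cascade genes on that scale. For the MEK pair the comparison rested on which transcript is taken. Map2k1 (MEK1) and Map2k2 (MEK2) had 249 and 239 per kb of exon, a ratio of 1.04, but 380 and 986 per kb of canonical transcript, and their mean counts were 935 and 2132. The overlap of Map2k1 with the opposite-strand gene Snapc5, at 31.4% of its exon length, adds to its uncertainty. Araf and Braf had mean counts of 1098 and 1273 and levels of 116 and 67.4 per kb of exon. Araf was 3.39 times as high as Braf per kb of canonical transcript and 0.920 times per kb of coding sequence, so their order was not settled either.

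**Figure D2:**
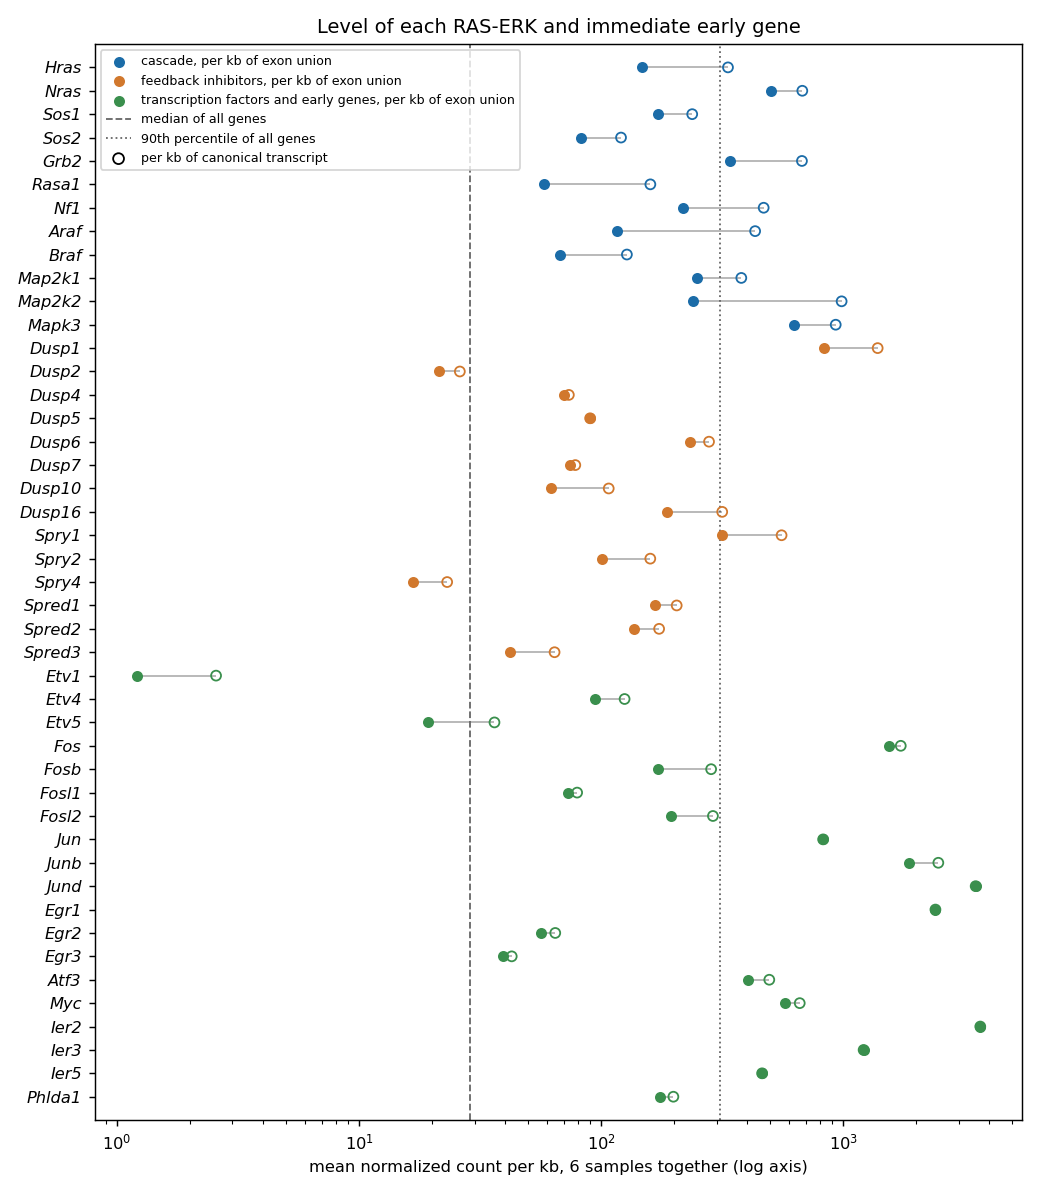
Level of each of the 45 genes, as the authors' mean normalized count per kb over the 6 samples together (log axis). Filled points divide by the summed exon length and open points by the canonical transcript, coloured by layer; the long lines of Map2k2, Araf and Rasa1 mark genes whose level depends on the length used, whereas Jun, Jund, Egr1, Ier2, Ier3 and Ier5 do not move.

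Among the feedback inhibitors, 1 gene of each larger family led. Dusp1 (ENSMUSG00000024190, chromosome 17, 26724564 to 26781102) averaged 2764 normalized counts and 832 per kb of exon, at the 97.6th percentile. It was the highest of the 8 DUSP genes under every length and made up 58.8% of their summed level per kb of canonical transcript. Dusp6, a cytoplasmic phosphatase selective for ERK and a common readout of its activity, had 233 per kb of exon (mean count 791). Dusp16, which prefers JNK and p38, reached 187 per kb of exon (mean count 1652). The order of Dusp6 and Dusp16 depended on the length: Dusp6 was 1.25 times as high per kb of exon and 0.882 times per kb of canonical transcript. Dusp1 was 3.34 to 4.97 times as high as Dusp6 over the 4 lengths. The ERK phosphatases Dusp4, Dusp5 and Dusp7 had 70.3, 90.1 and 74.5 per kb, and Dusp10, which acts on JNK and p38, had 62.1. Their mean counts were 202, 224, 305 and 377, in that order. Dusp2, a nuclear phosphatase best known from immune cells, was the lowest of the family with a mean count of 45.4 and 21.3 per kb. Of the 28 pairs of DUSP genes, 23 kept their order under all 4 lengths.

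Spry1 led the Sprouty genes, averaging 1503 normalized counts and 315 per kb of exon. Spry2 had a mean count of 518 and 101 per kb, and Spry4 a mean count of 110 and 16.7 per kb. Spry1 thereby accounted for 75.3% of the family's summed level per kb of canonical transcript and Spry4 for 3.13%. The SPRED genes were more even. Spred1 and Spred2 had 167 and 137 per kb (mean counts 1300 and 834), and Spred3 had 42.1 per kb (mean count 278). Spred1 was at most 1.52 times as high as Spred2 over the 4 lengths, a small gap that cannot be judged without the spread between samples.

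The ETS factors of the PEA3 group, transcription factors that are themselves targets of ERK signalling, were the lowest set. Etv4 averaged 300.1 normalized counts and 94.6 per kb of exon. Etv5 had a mean count of 145 and 19.3 per kb, and Etv1 a mean count of 16.9 and 1.21 per kb, at the 14.0th percentile. Etv1 was thus the lowest of the 45 genes, and Etv4 stood 20.1 to 78.4 times above it depending on the length. Etv1 and Etv5 also had the smallest shares of 42-base stretches found at 1 place in the genome, at 85.5% and 74.5% of their exons; Grb2, Dusp7 and Spred2 were at 86.5%, 87.7% and 87.6%. The reads were 42 bases long, so a single read from part of these exons cannot be placed with certainty. They were sequenced in pairs, which these shares do not take into account.

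The FOS genes encode partners of JUN in the AP-1 dimer. Fos (ENSMUSG00000021250, chromosome 12, 85520658 to 85524047) averaged 3658 normalized counts and 1551 per kb of exon, at the 99.0th percentile. Fosl2 and Fosb followed with 194 and 173 per kb (mean counts 2021 and 1077). Fosl1 was the lowest at 73.0 per kb (mean count 148), and 57.2% of its exon length overlaps the opposite-strand gene Ccdc85b, which had a mean count of 256. Fos made up 72.6% of the family per kb of canonical transcript but 49.3% per kb of coding sequence. All 6 pairs of FOS genes kept their order under the 4 lengths, although Fosl2 and Fosb differed by as little as 1.02 times.

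All 3 JUN genes lay above the 97th percentile per kb of exon. Per kb of canonical transcript Jun was at the 94.0th. Jund (ENSMUSG00000071076, chromosome 8, 71151599 to 71153265) averaged 5882 normalized counts and 3529 per kb of exon. Junb had a mean count of 4475 and 1879 per kb, and Jun a mean count of 2636 and 827 per kb. Jund is known as the most constitutively expressed of the 3, Jun and Junb as the inducible ones. Their order was the same under every length, and Jund stood 2.33 to 4.27 times above Jun. Each is a single-exon gene in its canonical transcript. The exons of Jund overlap the opposite-strand lncRNA Gm11175 over 52.6% of their length, and that gene had a mean count of 28.9. Whether counting lost reads of this overlap was not tested. The exons of Junb overlap Prdx2, an opposite-strand peroxiredoxin gene with a mean count of 3855, over 7.27% of theirs.

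Egr1 had the highest mean normalized count of the 45 genes, at 10820, and ranked 98 of 20624. The gene, an early zinc finger factor induced through ERK and serum response factor (ENSMUSG00000038418, chromosome 18, 34992876 to 34998049), had 2407 per kb of exon, at the 99.5th percentile. Its relatives were far lower. Egr2 had a mean count of 192 and 56.4 per kb, and Egr3 a mean count of 186 and 39.5 per kb. Egr1 made up 95.7% of the summed EGR level per kb of canonical transcript, and it exceeded Egr2 by 37.2 to 53.1 times. The order of Egr2 and Egr3 changed with the length used.

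**Figure D3:**
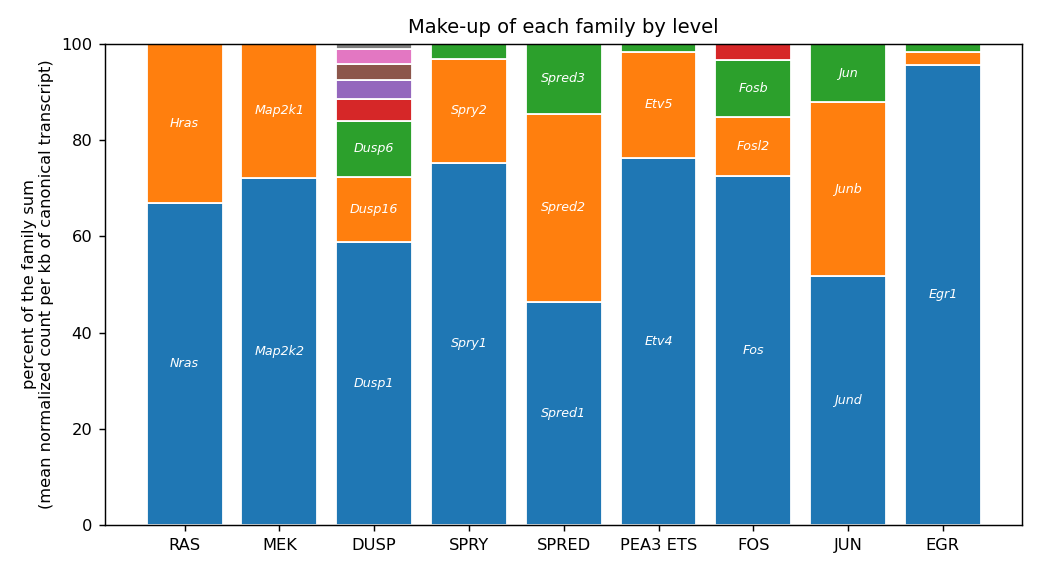
Make-up of 9 gene families, as the percent of the family's summed level per kb of canonical transcript (mean over the 6 samples); blue is the highest gene of each family and segments too thin for a name are left blank. Egr1 takes 95.7% of its family and Spred1 46.3%.

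The other 6 early genes all lay above the 80th percentile per kb of exon. Per kb of canonical transcript Phlda1 was at the 71.3rd. Ier2 (ENSMUSG00000053560, chromosome 8, 85387960 to 85389483), a nuclear protein of the immediate early class, averaged 5619 normalized counts and 3687 per kb of exon, the highest level of the 45 genes on that scale. Ier3, an early gene linked to cell survival, had a mean count of 1384 and 1215 per kb. Ier5, a relative of Ier2, had a mean count of 1515 and 463 per kb. The growth regulator Myc had a mean count of 1572 and 576 per kb, and the stress-induced factor Atf3 a mean count of 983 and 403 per kb. Phlda1, a pleckstrin homology-like protein, was the lowest of the 6 with a mean count of 388 and 176 per kb. Over all 14 groups, 60 of the 71 pairs of genes within a group kept their order under the 4 lengths.

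The members also differed in gene structure, which the choice by name had not used. The canonical transcripts of the 16 early genes, without the PEA3 factors, spanned a median of 3.86 kb of genome in 2 exons. Those of the 12 cascade genes spanned a median of 66.2 kb in 13.5 exons, with 229 kb and 55 exons for Nf1. The median over the 13862 protein-coding genes of the table was 22.3 kb and 9 exons. A span under 10 kb was found for 14 of the 16 early genes, 6 of the 14 inhibitors, 2 of the 12 cascade genes and 0 of the 3 PEA3 factors, and for 26.3% of the protein-coding genes. The members with 1 exon numbered 5, namely Jun, Junb, Jund, Ier2 and Ier5, whereas 2.81% of the protein-coding genes had 1. The 2 early genes at or above 10 kb were Atf3 and Fosl2. Short span did not go with a high level in every case, since Dusp2, Egr2 and Egr3 also spanned less than 10 kb. The members lay on 20 chromosomes. Junb and Ier2, both among the highest, were 0.312 Mb apart on chromosome 8.

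**Figure D4:**
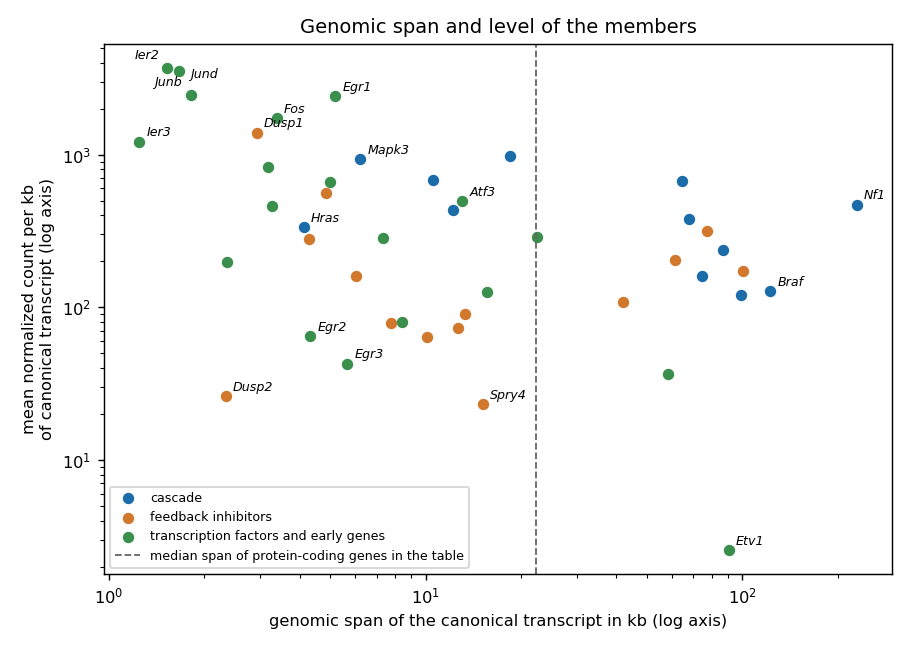
Genomic span of the canonical transcript (kb, log axis) against level per kb of canonical transcript (log axis), 1 point per gene, coloured by layer. The dashed line is the 22.3 kb median of protein-coding genes; Ier2, Jund, Junb, Fos and Egr1 sit at the upper left and Etv1 at the lower right.

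Other genes of the pathway, taken by list, also lay mostly above the median. Of 18 upstream and scaffold genes 17 were in the table and 16 lay above the median of all genes, from Rasa2 at 26.2 per kb of exon to the phosphatase Ptpn11, which encodes SHP2, at 758. Of 13 kinases and factors downstream of ERK all were in the table and 12 lay above the median, from Rps6ka2 at 19.4 to the ERK-activated kinase Mknk2 at 748. Serum response factor itself, Srf, had 233 per kb, and its partners Elk1, Elk3 and Elk4 had 82.5, 194 and 232. Of 8 further feedback genes 7 were in the table and 7 lay above the median, from Rasa4 at 31.7 to Dusp3 at 662. Of 18 further immediate early genes 17 were in the table and 15 lay above the median. Their range was the widest of the 4 lists, from the nuclear receptor Nr4a3 at 1.02 to the matricellular gene Ccn1, listed under its older name Cyr61, at 9190. The median percentiles of the 4 lists were 81.5, 85.6, 85.1 and 72.8.

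The authors name the line distal convoluted tubule. It was set beside markers of several cell types, and these did not single out that segment. Of 12 distal convoluted tubule markers 5 had a row: Wnk1 with a mean normalized count of 8468, Stk39 with 621, Wnk4 with 413, Trpm6 with 29.6 and Klhl3 with 5.70. Slc12a3, the sodium-chloride cotransporter that defines this segment, had no row in the table used here. Among proximal tubule markers Lrp2 stood at 8826 and Cubn at 169, whereas Slc34a1 and Slc5a2 were at 2.04 and 2.77. Of the markers of leukocytes, endothelium and collecting duct, only Ptprc, Pecam1 and Scnn1g had a row, at 5.36, 4.68 and 0.618. The paper states a cutoff of 5 counts for each gene in each sample, yet Scnn1g had a row at a mean of 0.618. By what rule genes without a row were left out is therefore not known. Among fibroblast markers Col1a1 was at 201, whereas Col1a2, Col3a1 and Pdgfrb were at 2.71, 2.44 and 4.48. Of 2 markers of the thick ascending limb 0 had a row. Their part in the levels above was not tested. Across the members, exons of 24 overlapped a GENCODE gene on the opposite strand and of 0 a gene on the same strand. For 13 of the 24 such a partner had a row. The authors counted with an Ensembl annotation, and whether it held the other partners was not checked. The authors counted reads with the default settings of the program, and whether its strand setting fits the library kit was not tested. How reads of the overlaps were assigned, in the pairs in which both genes were counted, was therefore not settled here.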

How the data were processed

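RNA of 3 wild type and 3 Pkd1-/- mDCT15 samples, grouped by their titles, was depleted of ribosomal RNA and sequenced in paired reads of 42 bases. According to the submitters' processing notes, the authors used Trim Galore 0.4.5, STAR 2.7.5a, HTSeq 0.11.0, DESeq2 1.22.0 and R 3.5.3 with GRCm39. The deposited table holds per gene a mean normalized count, here treated as a signal that the authors averaged over all 6 samples after the internal normalization of DESeq2. It also holds 5 columns of the authors' genotype comparison: a log2 fold change, its standard error, a test statistic, a p-value and an adjusted p-value. These were not used. Numeric columns of single samples left unmatched numbered 0.

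No value of a single sample was analysed, so the tests planned for counts per sample were replaced by descriptions, and depth per sample and precision are unknown. Means were divided by the length of the exon union, longest transcript, coding sequence or canonical transcript in the GENCODE annotation of GRCm39. The percentile of a gene is its place among the genes with a length. Exon stretches of 42 bases were matched to the genome to find those that occur once. Motifs were searched in the RefSeq promoters of GRCm38.p6, and the search was tested on simulated data. Every member is named, by role, and of each further list the highest and lowest gene; Srf and the Elk genes were named after their values were seen. The members and lists were chosen with earlier results of these data known. Python 3.11.15, numpy 2.4.6, pandas 2.3.3 and matplotlib 3.10.9 were used.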

Additional observations from a re-analysis of the deposited data

How the results depend on the processing

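The number of members above the median level was 41, with a range of 30 to 43 over the alternatives, and each remained within 1.5 times of the reported number. The lowest numbers were 30 with coding length and 32 when genes had to reach a mean of 10. Coding length was used among protein-coding genes only, where the exon union gave 34. The median percentile of the members, 80.6 as reported, was 74.0 with coding length, 79.3 when genes had to reach a mean of 1, 71.3 when they had to reach 10, 72.7 among protein-coding genes only and 78.2 with the canonical transcript, the last chosen after seeing the data. The minimum means remove genes of low level by construction. The 74.0 with coding length shares the protein-coding background of the 72.7, and lay above it. For the canonical transcript the cause was not tested. With the longest transcript or no division by length it was 80.8 and 80.3. Counting only promoter bases before the start, the ETS core was found in 7 members in place of 8, and the numbers for the other 4 motifs were as reported. No paired analysis was possible because the values used hold no columns of single samples. For the same reason another count test, other size factors, no filter, another pseudocount and leaving out each replicate were not run. The spread between replicates and the depth of each sample therefore limit every comparison of levels to a description.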
